A study of Mus musculus with 6 samples.

Results

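The genes described here encode the electroneutral and electrogenic carriers that move sodium, chloride, bicarbonate, sulfate, protons and calcium across cell membranes, the solute carrier families Slc4, Slc8, Slc9, Slc12, Slc24 and Slc26. They were taken by symbol from a deposited table of mouse kidney arrays: rows with exactly 1 gene symbol of these families, and, for a symbol with several rows, the one of highest average level. This gave 42 of the 22180 genes tested, 9 of Slc4, 3 of Slc8, 7 of Slc9, 8 of Slc12, 4 of Slc24 and 11 of Slc26. Genes of these families without such a row were not analysed here.

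Total RNA of 6 mouse kidney samples was hybridised to 1 single-colour Affymetrix whole-transcript array each. 3 samples were labelled Cre-positive and 3 Cre-negative, all from mice killed at 4 weeks of age without special treatment. For all 6 samples the labels name the same conditional knockout line of Pals1/Mpp5, given as in a C56Bl/6 background, transgenic Six2-Cre mice bought from JAX, and a mixed background strain. The title speaks of haplo-insufficiency of Pals1, the product of Mpp5 that anchors Crumbs at the apical side of epithelial cells, but the labels do not give the number of conditional alleles a sample carried. Six2-Cre is active in the progenitors of nephron epithelia, from the podocyte to the connecting tubule, and not in the ureteric bud, from which the collecting duct descends. The labels do not say whether samples came from separate mice, so the p-values rest on the spread among the 6 arrays as it stands, part of which may be technical.

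Salt reabsorption in the kidney is divided among nephron segments, each with its own luminal sodium carrier. The proximal tubule uses the sodium/proton exchanger NHE3 at the brush border with the sodium bicarbonate cotransporter NBCe1 on the blood side, the thick ascending limb uses the furosemide-sensitive cotransporter NKCC2, and the distal convoluted tubule uses the thiazide-sensitive cotransporter NCC. Intercalated cells of the connecting tubule and collecting duct set acid-base balance by chloride/bicarbonate exchange, through AE1 on the blood side of type A cells and through pendrin on the urine side of type B cells. Loss of these carriers causes salt wasting, tubular acidosis or stones in humans.

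Promoter sequences are shown for 4 members around which the comparison turns: Slc26a6 and Slc26a4, which fell in Cre-positive kidneys, and the cotransporter genes Slc12a3, which fell, and Slc12a1, which did not pass the test. They are RefSeq sequences of GRCm38.p6, from 250 bases before to 50 bases after the gene start, read 5′ to 3′ on the gene's strand, and capitals mark matches to any of the 5 motifs searched.
Slc26a6 (chr9:108853793-108854092, + strand): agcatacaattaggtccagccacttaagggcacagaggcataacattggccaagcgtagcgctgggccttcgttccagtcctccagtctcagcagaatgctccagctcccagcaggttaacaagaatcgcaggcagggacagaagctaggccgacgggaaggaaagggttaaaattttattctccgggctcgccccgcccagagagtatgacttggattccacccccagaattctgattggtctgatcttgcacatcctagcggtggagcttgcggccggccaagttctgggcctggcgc
Slc26a4 (chr12:31559935-31560234, - strand): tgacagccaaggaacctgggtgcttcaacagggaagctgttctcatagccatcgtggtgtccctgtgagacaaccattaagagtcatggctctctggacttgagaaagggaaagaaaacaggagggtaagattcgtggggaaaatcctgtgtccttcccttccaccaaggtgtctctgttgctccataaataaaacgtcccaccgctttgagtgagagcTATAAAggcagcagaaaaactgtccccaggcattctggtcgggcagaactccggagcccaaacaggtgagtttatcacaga
Slc12a3 (chr8:94328958-94329257, + strand): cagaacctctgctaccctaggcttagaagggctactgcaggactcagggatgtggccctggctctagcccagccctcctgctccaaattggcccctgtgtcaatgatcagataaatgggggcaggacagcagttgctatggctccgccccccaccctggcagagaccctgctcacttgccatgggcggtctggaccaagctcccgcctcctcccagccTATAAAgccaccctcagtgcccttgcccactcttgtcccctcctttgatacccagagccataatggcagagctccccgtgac
Slc12a1 (chr2:125152350-125152649, + strand): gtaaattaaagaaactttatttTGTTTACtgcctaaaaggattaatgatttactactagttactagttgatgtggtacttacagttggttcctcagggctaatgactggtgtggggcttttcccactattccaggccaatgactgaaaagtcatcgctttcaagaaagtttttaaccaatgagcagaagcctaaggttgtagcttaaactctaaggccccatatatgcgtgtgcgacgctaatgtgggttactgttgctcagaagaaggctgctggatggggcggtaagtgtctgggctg
The motifs were searched as exact letters on both strands: the HNF1 motif GTTAAT, the HNF4 core CAAAGTCC, the ERR site AAGGTCA, the forkhead site TGTTTAC and the TATA box TATAAA. Of the 42 members 33 had an entry, and the first entry of each gene was used. Counted from the gene start, TATAAA began at -31 in Slc26a4 and at -32 in Slc12a3, and it or its reverse complement occurred in 7 of the 33 member promoters, against 14.2% of 27025 promoters of the same length. The Slc12a1 promoter held TGTTTAC at -228, the only such match among the 33, against 3.55% of all promoters. GTTAAT was found in 2 member promoters (7.2% of all), AAGGTCA in 1 (4.66%) and CAAAGTCC in 0 (1.44%). No match was found in the window of Slc26a6. The matches describe letters in these windows only.

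All values below are log2 levels after RMA or differences of them, Cre-positive minus Cre-negative, ± SE from limma with n = 3 per group, and a member is said to have risen or fallen where limma's adjusted p over all 22180 genes was below 0.05. Kidney transcripts were present in all arrays, with Umod at 12.48 to 12.69 in Cre-positive and 12.85 to 12.88 in Cre-negative arrays. Mpp5 itself fell by 0.61 ± 0.09 (adjusted p = 0.00232), at 8.04, 8.06 and 8.20 in Cre-positive arrays and 8.66, 8.69 and 8.78 in Cre-negative arrays. The arrays were not balanced for sex: the female transcript Xist was at 10.76 in Cre-negative replicate 1, at 10.70 in Cre-negative replicate 2 and between 4.0 and 4.29 in each of the others. Cre-negative replicate 2 also carried adrenal transcripts (Cyp11b1 at 11.10, against 3.85 to 4.24 elsewhere), while the Cre-positive array numbered 2 held transcripts of skeletal muscle (Myh4 at 7.72, against 3.93 to 4.86 elsewhere).

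Transporters of several nephron segments fell in Cre-positive kidneys, led by the anion exchangers of the Slc26 family, while 5 carriers rose, among them the widely expressed cotransporter gene Slc12a4 and the endosomal exchanger gene Slc9a9. Of the 42 members 12 fell, or 28.6%, against 11.1% of all tested genes that were called lower. 5 members rose, or 11.9%, against 10.7% of all tested genes called higher, which is near the background. Together 17 members passed, or 40.5%, against 21.8% of all tested genes. The median difference of the 42 members was -0.07, and that of all tested genes -0.01. The groups did not overlap for 14 members lower in Cre-positive arrays and 8 members higher, against 19.9% and 18.6% of all tested genes. All 17 members that passed were among these 22, and the other 5 were Slc12a1 and Slc24a3, lower in Cre-positive arrays, and Slc4a3, Slc8a2 and Slc12a9, higher. With sex as a second factor 4 members fell and 1 rose. Leaving out Cre-negative replicate 1 brought the number that rose to 2, leaving out Cre-positive replicate 2 brought it to 3, and so did leaving out Cre-negative replicate 3.

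**Figure D1:**
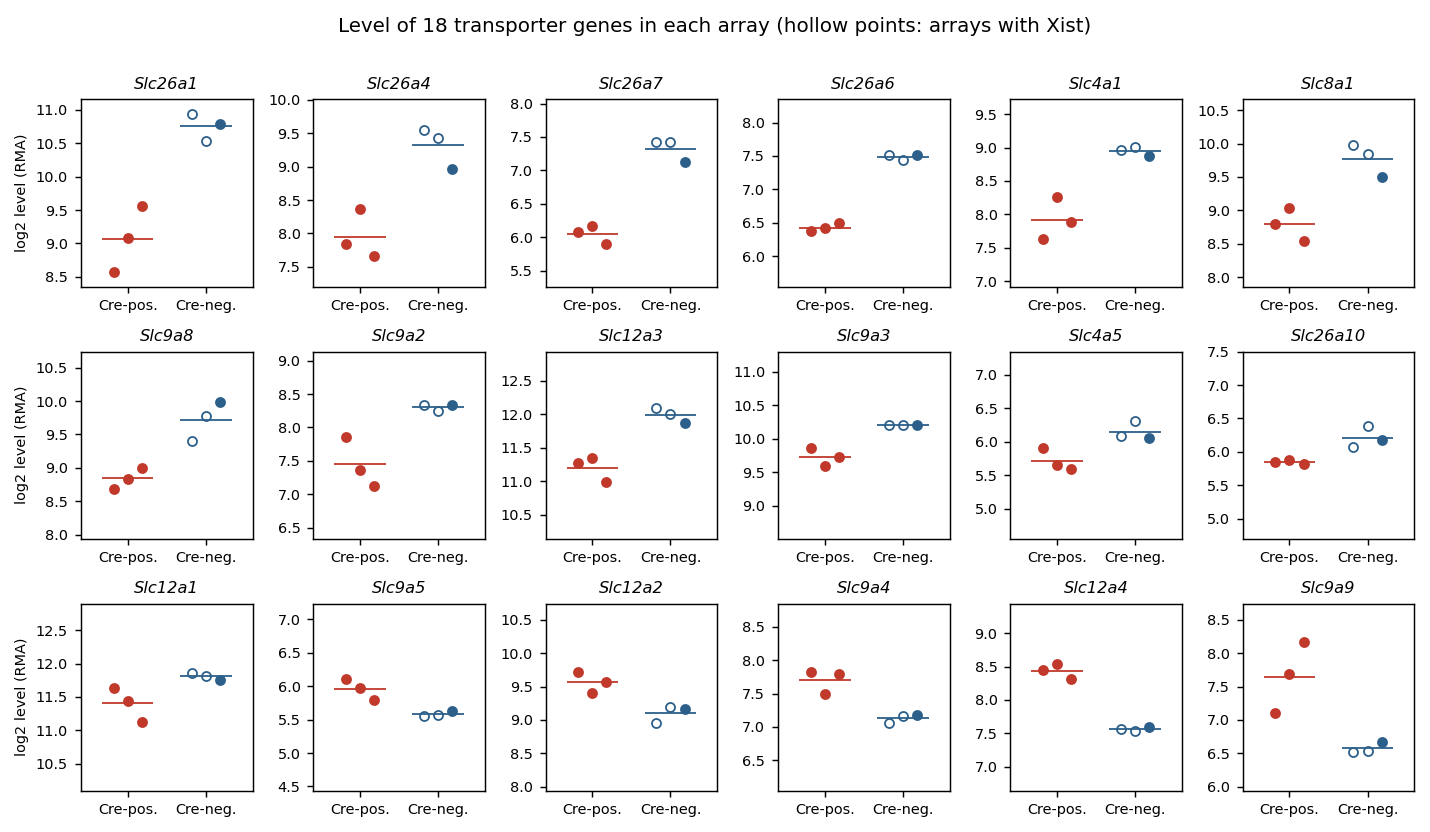
Log2 level after RMA (vertical axes, each spanning the same range of values) of the 17 members past the threshold and of Slc12a1 in each of the 3 Cre-positive (red) and 3 Cre-negative (blue) arrays, with points in replicate order, a line at the group mean, and hollow points for the 2 arrays with Xist. In all 18 panels the points of one colour lie apart from those of the other, and the Cre-positive points of Slc26a1 and Slc9a9 spread over 0.99 and 1.05 units.

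In the proximal tubule 4 of 6 measured members fell (66.7%, against 11.1% of all tested genes) and 2 did not pass. All 6 differences were below 0, with a median of -0.68. With sex as a second factor 3 of the 4 calls held and that of Slc9a3 ended (adjusted p = 0.0933). Slc26a1 (probe set 17450830), the sulfate/anion exchanger of the basolateral membrane, stood at 8.57, 9.08 and 9.56 in Cre-positive arrays, against 10.94, 10.54 and 10.79 in Cre-negative arrays. Its difference of -1.69 ± 0.23 (adjusted p = 0.002) was the largest of the 42 members in either direction, a level 68.9% lower on the linear scale. Even the highest Cre-positive array lay well under the lowest Cre-negative one, but the Cre-positive arrays ranged over 0.99 units. Idua, a gene whose annotated span overlaps that of Slc26a1, was at 0.29 ± 0.10 and did not pass (adjusted p = 0.0884).

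Slc26a6 (probe set 17521971), the apical exchanger that couples chloride uptake to oxalate secretion, had 6.37, 6.42 and 6.49 in Cre-positive arrays, against 7.51, 7.44 and 7.52 in Cre-negative arrays. Its difference of -1.06 ± 0.08 had the smallest p of the 42 members (adjusted p = 0.000177). Both groups were tight, with an SD of 0.06 in Cre-positive and 0.04 in Cre-negative arrays. Slc9a8 (17379889), which encodes the brush border sodium/proton exchanger NHE8, read 8.69, 8.84 and 9.0 in Cre-positive arrays and 9.40, 9.78 and 9.99 in Cre-negative arrays (-0.88 ± 0.16, adjusted p = 0.00631). The groups were separate, and the Cre-negative arrays spread more, over 0.59 units.

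Slc9a3 (17288624), encoding NHE3, the main route of sodium entry in this segment, changed less. Its levels were 9.86, 9.60 and 9.73 in Cre-positive arrays and 10.21, 10.20 and 10.20 in Cre-negative arrays. The fall of 0.47 ± 0.09 on the log2 scale (adjusted p = 0.00881) equals a level 27.9% lower, and the Cre-negative arrays were within 0.01 of each other. Slc4a4 (17438832), which encodes the basolateral bicarbonate exit pathway NBCe1, did not pass. It stood at 12.48, 12.24 and 12.32 in Cre-positive arrays and 12.53, 12.45 and 12.42 in Cre-negative arrays, so the groups overlapped, and its difference of -0.12 had a 95% interval of -0.34 to 0.09. Slc12a7, encoding the potassium chloride cotransporter KCC4, was at -0.26 ± 0.11 (adjusted p = 0.16). The 95% interval of Slc26a1, from -2.22 to -1.15, lay wholly below that of Slc4a4.

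Other proximal tubule markers moved with these members. 9 of 10 fell and 0 rose, with a median of -1.13, from -2.49 ± 0.16 for the glucose transporter gene Slc5a2 to -0.21 ± 0.12 for the water channel gene Aqp1, which did not pass. The log2 of their summed linear levels was 14.25 to 14.42 in Cre-positive and 15.33 to 15.41 in Cre-negative arrays. Fewer cells of a type and less RNA per cell cannot be told apart in these bulk samples, and the part of the marker change in the transporter results was not tested.

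In the thick ascending limb the 2 measured members had differences of opposite sign, of which 1 passed (50%, against 21.8% of all tested genes). Slc12a1 (17375608), encoding NKCC2, was at 11.64, 11.44 and 11.13 in Cre-positive arrays and 11.86, 11.82 and 11.75 in Cre-negative arrays. All Cre-positive values were below all Cre-negative ones, but its difference of -0.41 ± 0.13 did not pass the test (adjusted p = 0.0641). It passed in 4 of 16 alternatives, among them the fit without Cre-positive replicate 1 (-0.52, adjusted p = 0.0235), and the adjusted p over all alternatives was 0.0235 to 0.464. Slc9a4 (17212269), encoding the basolateral sodium/proton exchanger NHE4, rose, with 7.83, 7.50 and 7.80 in Cre-positive arrays against 7.06, 7.17 and 7.18 in Cre-negative arrays (0.57 ± 0.11, adjusted p = 0.00845). Its groups were separate, and its call ended with sex as a second factor (adjusted p = 0.106). Of 7 other markers of this segment 5 fell (71.4%, against 11.1% of all tested genes) and 1 rose (14.3%, against 10.7%). Their median was -1.0, with summed log2 levels of 13.06 to 13.25 in Cre-positive and 13.90 to 14.04 in Cre-negative arrays. With sex as a second factor 4 of these marker calls held. Egf, the precursor gene of epidermal growth factor, fell by 3.31 ± 0.27, while Umod, the uromodulin gene, was at -0.28 ± 0.09 and did not pass (adjusted p = 0.0559). The part of the marker change in the results on Slc12a1 and Slc9a4 was not tested.

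All 3 members of the distal convoluted and connecting tubule fell, against 11.1% of all tested genes, with differences of -0.99 to -0.78. All 3 calls ended with sex as a second factor (adjusted p = 0.0553 for Slc12a3, 0.0758 for Slc8a1 and 0.0843 for Slc9a2). That of Slc9a2 also ended without both arrays numbered 2 (0.0978). Slc12a3 (17503974), encoding the thiazide-sensitive cotransporter NCC, had 11.27, 11.35 and 10.99 in Cre-positive arrays, against 12.09, 12 and 11.87 in Cre-negative arrays. It fell by 0.78 ± 0.12 on the log2 scale (adjusted p = 0.00288), to a level 41.9% lower. Slc8a1 (17347619), encoding the sodium/calcium exchanger NCX1 that returns calcium to the blood, was at 8.79, 9.04 and 8.54 in Cre-positive arrays and 9.98, 9.84 and 9.50 in Cre-negative arrays (-0.99 ± 0.16, adjusted p = 0.00446). For both genes the lowest Cre-negative value was that of the male array, replicate 3. Slc9a2 (17212286), encoding the apical sodium/proton exchanger NHE2, read 7.85, 7.36 and 7.13 in Cre-positive arrays and 8.33, 8.24 and 8.34 in Cre-negative arrays (-0.86 ± 0.17, adjusted p = 0.0101). Its Cre-positive values spread over 0.72 units and its Cre-negative values over 0.10.

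Of 6 other markers of these segments 5 fell (83.3%, against 11.1% of all tested genes) and 1, the calcium channel gene Trpv5, rose (0.95 ± 0.13), with a median of -0.78. Their summed log2 levels were 12.28 to 12.32 in Cre-positive arrays. In Cre-negative replicates 1, 2 and 3 they were 12.69, 12.65 and 12.39, lowest in the male array. With sex as a second factor 3 of the 6 marker calls held, among them that of Trpv5 (adjusted p = 0.00839). Trpv5, the luminal calcium channel gene, and Slc8a1, the basolateral calcium exchanger gene, thus went in opposite directions in these bulk samples. In which cells they changed was not tested. The part of the marker change in the 3 transporter results was not tested.

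**Figure D2:**
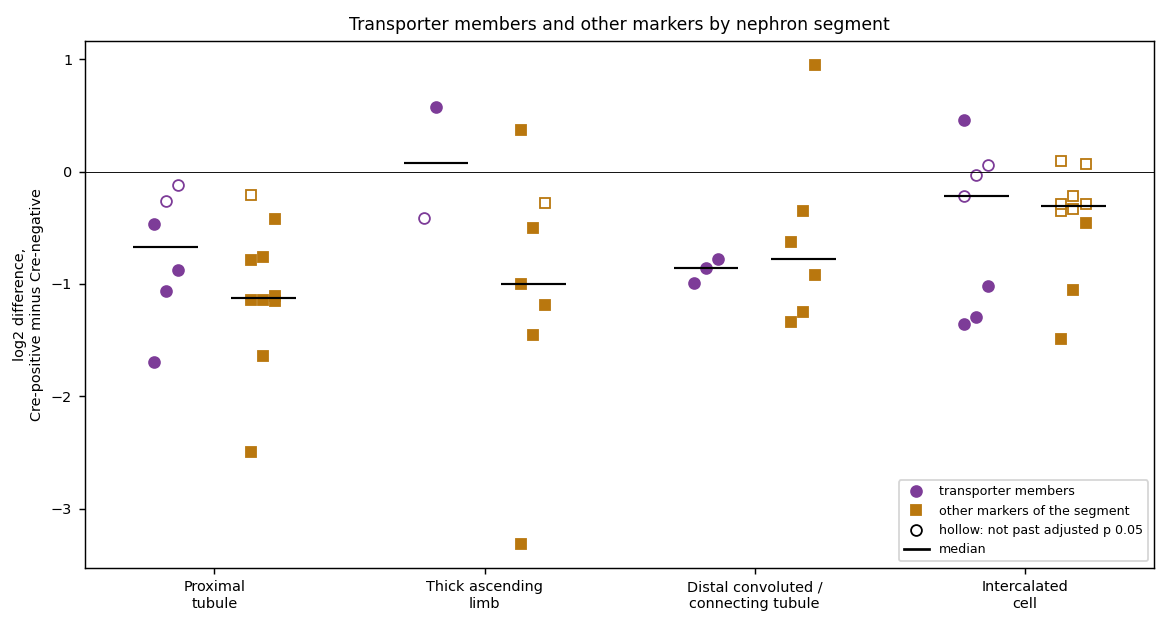
Log2 difference, Cre-positive minus Cre-negative (vertical axis), of each transporter member (purple circles) and each other marker (brown squares) of 4 nephron segments or cell types, hollow where the adjusted p was not below 0.05, with a line at each median. Medians of members and markers are -0.68 and -1.13 in the proximal tubule, -0.86 and -0.78 in the distal convoluted and connecting tubule, and -0.22 and -0.31 in intercalated cells, while the 2 thick ascending limb members lie on either side of 0.

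Among the 7 members of intercalated cells 3 fell (42.9%, against 11.1% of all tested genes), to levels 50.7% to 61.1% lower on the linear scale. Of the others 1 rose (14.3%, against 10.7%) and 3 did not pass. Of these 4 calls only that of Slc26a7 held with sex as a second factor. Slc26a4 (17280530), encoding pendrin, the urine-side chloride/bicarbonate exchanger of type B cells, had 7.84, 8.36 and 7.66 in Cre-positive arrays, against 9.55, 9.43 and 8.97 in Cre-negative arrays. The difference was -1.36 ± 0.21 (adjusted p = 0.00323), a level 61.1% lower. The groups were separate, and the male Cre-negative array was the lowest of its group. Slc26a7 (17423395), encoding a basolateral chloride/bicarbonate exchanger of type A cells, stood at 6.07, 6.16 and 5.89 in Cre-positive arrays and 7.42, 7.43 and 7.12 in Cre-negative arrays (-1.29 ± 0.12, adjusted p = 0.000377). Slc4a1 (17270162), encoding AE1, the blood-side exchanger of type A cells, read 7.63, 8.26 and 7.88 in Cre-positive arrays and 8.96, 9.01 and 8.87 in Cre-negative arrays (-1.02 ± 0.15, adjusted p = 0.00297).

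Slc4a1 is also the band 3 gene of red blood cells. Of 12 erythroid markers 3 were measured. Rhag, at 4.19 to 4.54 in Cre-positive and 4.26 to 4.47 in Cre-negative arrays, lay within the 3.66 to 4.54 that Y-linked genes read in the 2 arrays with Xist, and Tspo2, at 4.61 to 4.97 in Cre-positive and 4.56 to 4.95 in Cre-negative arrays, was little above it, so a fall of these could hardly have been seen. Epb42, a partner of band 3 in the red cell membrane, rose by 0.69 ± 0.12. It read 5.42, 5.65 and 5.44 in Cre-positive arrays and 4.61, 4.90 and 4.94 in Cre-negative arrays, the latter as dim as Tspo2. Its call ended with sex as a second factor (adjusted p = 0.0929). Rhag and Tspo2 did not pass, and the summed log2 level of the 3 genes was 6.43 to 6.61 in Cre-positive and 6.20 to 6.34 in Cre-negative arrays. The part of red cell transcripts in the result on Slc4a1 was not tested.

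Of the other 4 members of this cell type 3 did not pass and 1 rose. Slc4a9 (17349643), which encodes the basolateral exchanger AE4 of type B cells, was at 9.50, 9.59 and 9.17 in Cre-positive arrays and 9.70, 9.73 and 9.47 in Cre-negative arrays. These groups overlapped, and the 95% interval of its difference ran from -0.52 to 0.09. The type B cell exchanger gene Slc4a8 (0.06 ± 0.12) and Slc26a11 (-0.03 ± 0.10) did not pass either. Slc12a2 (17350824), encoding the basolateral cotransporter NKCC1, was assigned here to this cell type but is not confined to it. In which cells it rose was not tested. Slc12a2 had 9.72, 9.40 and 9.57 in Cre-positive arrays against 8.96, 9.19 and 9.16 in Cre-negative arrays (0.46 ± 0.11, adjusted p = 0.0234). This call was lost without Cre-positive replicate 1 (adjusted p = 0.0601), without Cre-negative replicate 1 (0.088) and without Cre-negative replicate 3 (0.0529), within a range of 0.0125 to 0.276 over all alternatives.

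Of 10 other intercalated cell markers 3 fell (30%, against 11.1% of all tested genes) and 0 rose, with a median of -0.31. The ones that fell were Insrr (-1.49 ± 0.15), an alkali-sensing receptor gene, Rhbg (-1.05 ± 0.11), an ammonia transporter gene, and Atp6v1g3 (-0.46 ± 0.12), a proton pump subunit gene. Foxi1, the transcription factor gene that specifies these cells, was at 0.07 ± 0.13 and did not pass. Summed log2 levels of the 10 were 12.51 to 12.66 in Cre-positive arrays. In Cre-negative replicates 1, 2 and 3 they were 13.04, 13.01 and 12.77, lowest in the male array. Set against the male array alone, the median of the 10 was -0.12. With sex as a second factor Insrr and Rhbg kept their calls and Atp6v1g3 lost it (adjusted p = 0.353). The part of the marker change in the results on Slc26a4, Slc26a7 and Slc4a1 was not tested. Of 5 principal cell markers, the neighbours of intercalated cells, 3 rose (60%, against 10.7% of all tested genes) and 0 fell (median 0.54). Of the other marker lists, 3 of 3 measured podocyte and 3 of 4 endothelial markers fell, against 11.1% of all tested genes. With sex as a second factor 2 principal cell, 2 podocyte and 1 endothelial call held. Of the remaining lists 0 of 5 neuron, 0 of 6 adrenal cortex and 0 of 6 skeletal muscle markers passed.

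Among the 6 measured members that are widely expressed or sit on intracellular membranes, 2 rose (33.3%, against 10.7% of all tested genes) and 0 fell. Slc12a4 (17512572), encoding the volume-regulating potassium chloride cotransporter KCC1, was at 8.45, 8.54 and 8.32 in Cre-positive arrays and 7.56, 7.54 and 7.59 in Cre-negative arrays (0.87 ± 0.09, adjusted p = 0.000539). The groups lay far apart relative to their spread, and the level was 83.3% higher. A dimmer second probe set of this gene, 17505009, did not share the difference: it read 5.19, 5.20 and 5.28 in Cre-positive arrays and 5.11, 4.91 and 5.34 in Cre-negative arrays, a difference of 0.10. With the mean of both rows the difference of Slc12a4 was 0.49 and still passed (adjusted p = 0.00755, 0.000201 to 0.0399 over all alternatives).

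Slc9a9 (17520396), encoding the endosomal sodium/proton exchanger NHE9, showed the largest rise, with 7.10, 7.69 and 8.16 in Cre-positive arrays against 6.52, 6.54 and 6.67 in Cre-negative arrays (1.08 ± 0.23, adjusted p = 0.0141). Its Cre-positive arrays were spread over 1.05 units and its Cre-negative arrays over 0.15. The call was lost without Cre-positive replicate 2 (adjusted p = 0.0512) and without Cre-negative replicate 1 (0.0525), in a range of 0.00163 to 0.216 over all alternatives. Myeloid markers, 6 of 7 of which rose and 0 of which fell, had summed log2 levels of 11.42, 11.94 and 12.42 in Cre-positive replicates 1, 2 and 3, against 10.27 to 10.43 in Cre-negative arrays. Slc9a9 and this marker sum thus had their lowest and highest Cre-positive values in the same arrays, and the part of myeloid transcripts in the result was not tested. The other 4 members of this class were Slc9a7, encoding the Golgi exchanger NHE7 (0.34 ± 0.14, adjusted p = 0.134), Slc12a9 (0.11 ± 0.08), Slc4a2, encoding the anion exchanger AE2 (0.06 ± 0.10), and the sulfate transporter gene Slc26a2 (-0.01 ± 0.09), none of which passed.

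The remaining 18 members have their best known roles outside the tubule, or no segment assigned here, and 2 of them fell, 1 rose and 15 did not pass. Their shares of 11.1% lower and 5.56% higher did not exceed the 11.1% and 10.7% of all tested genes. The bicarbonate cotransporter gene Slc4a5 (17460023) had 5.91, 5.65 and 5.59 in Cre-positive arrays and 6.09, 6.31 and 6.05 in Cre-negative arrays (-0.43 ± 0.12, adjusted p = 0.0374). Slc26a10 (17245729) read 5.85, 5.88 and 5.81 in Cre-positive arrays against 6.07, 6.39 and 6.17 in Cre-negative arrays (-0.37 ± 0.10, adjusted p = 0.0376). B4galnt1, whose annotated span overlaps that of Slc26a10, rose by 1.72 in the same arrays (adjusted p = 0.000383). Slc9a5 (17504761), known for the neuronal exchanger NHE5, stood at 6.11, 5.98 and 5.79 in Cre-positive arrays and 5.56, 5.57 and 5.63 in Cre-negative arrays (0.37 ± 0.10, adjusted p = 0.0354). The groups of these 3 genes were separate. The call of Slc4a5 was lost without any 1 array other than Cre-positive replicate 1, that of Slc9a5 without any other than Cre-positive replicate 3, and that of Slc26a10 without any other than Cre-negative replicate 1. Over all alternatives the adjusted p was 0.0183 to 0.39 for Slc4a5, 0.0127 to 0.373 for Slc9a5 and 0.0205 to 0.275 for Slc26a10.

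The neuronal members Slc12a5, encoding KCC2 (0.08 ± 0.14), Slc4a10 (-0.30 ± 0.13) and Slc8a2 (0.20 ± 0.10) did not pass. Nor did Slc8a3 (-0.13 ± 0.12), encoding the exchanger NCX3, or Slc12a8 (-0.11 ± 0.13), nor did any of the 4 potassium-dependent sodium/calcium exchanger genes of the Slc24 family, whose differences ran from -0.30 to 0.10. Slc4a3, the anion exchanger AE3 gene of heart and brain, was at 0.35 ± 0.11 (adjusted p = 0.0612) and passed without Cre-positive replicate 3 (0.44, adjusted p = 0.023, 0.023 to 0.272 over all alternatives). Slc4a11, a corneal endothelial carrier gene, was at 0.39 ± 0.22 (adjusted p = 0.271) and passed without Cre-positive replicate 1 (0.63, adjusted p = 0.0419, 0.0419 to 0.571 over all alternatives). Slc8a2, Slc24a2, Slc26a3 and Slc26a5 stayed at or below 4.54 in all 6 arrays. The Y-linked genes read 3.66 to 4.54 in the 2 arrays with Xist, and although probe sets differ in brightness, differences of members this dim are compressed by RMA.

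By family, 5 of the 11 members of Slc26 fell, with differences of -1.69 to -0.37, and 0 rose, and the other 6 lay between -0.03 and 0.06. The ones that fell were Slc26a1, Slc26a4, Slc26a6, Slc26a7 and Slc26a10. In Slc9, 3 of 7 fell (the apical exchanger genes Slc9a2, Slc9a3 and Slc9a8), 3 rose (Slc9a4, Slc9a5 and Slc9a9) and Slc9a7 did not pass. Thus 6 of 7 members of Slc9 passed, in opposite directions, against 21.8% of all tested genes. With sex as a second factor only Slc9a8 of these 6 kept its call, and without both arrays numbered 2 only Slc9a4 did. In Slc12, 1 of 8 fell (12.5%) and 2 rose (25%), in Slc4 2 of 9 fell (22.2%), in Slc8 1 of 3 fell (33.3%), and in Slc24 none of 4 passed. Of all tested genes 11.1% were called lower and 10.7% higher, so the share that fell in Slc12 was near the background.

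**Figure D3:**
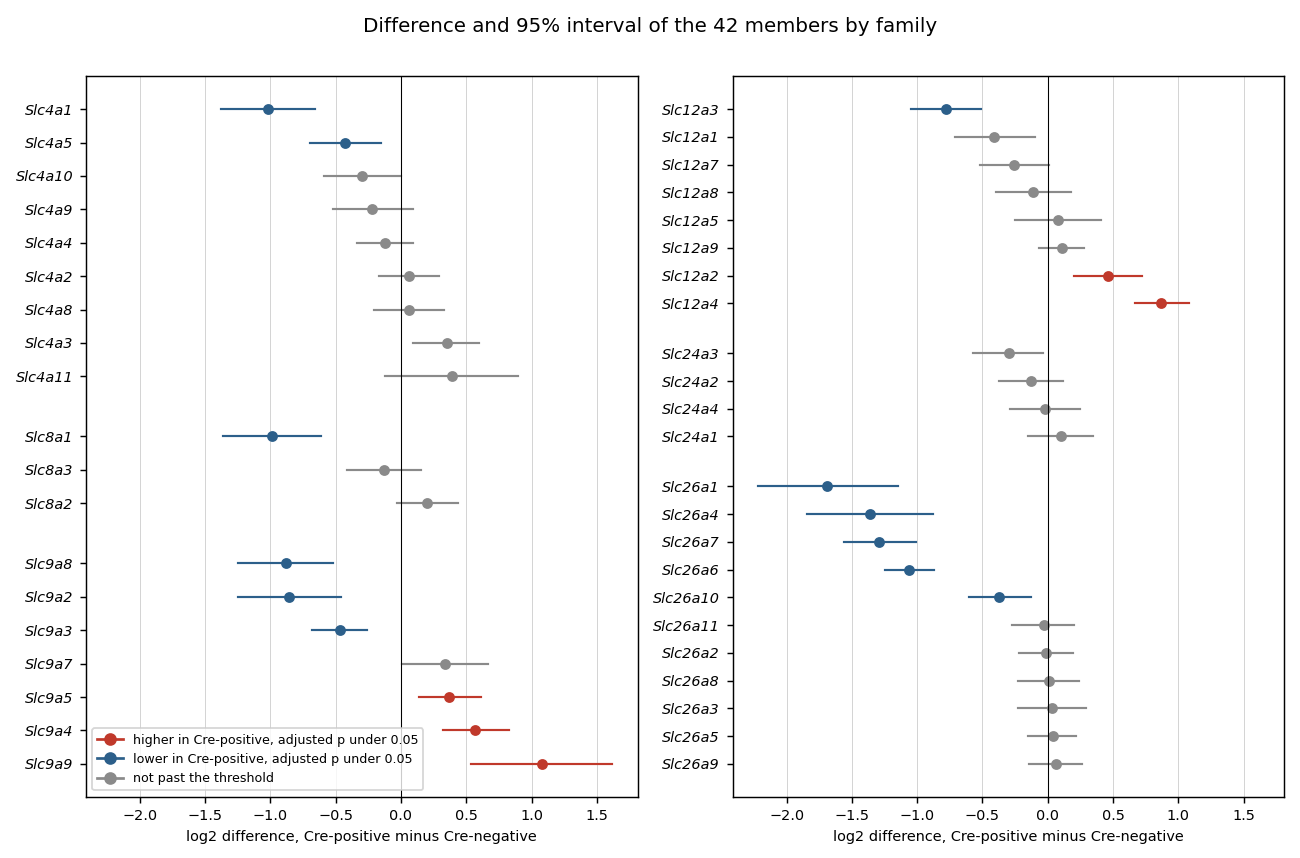
Log2 difference, Cre-positive minus Cre-negative (horizontal axes), with its 95% interval from limma for the 42 members, ordered by size within each of 6 families, in blue where lower and red where higher in Cre-positive arrays at adjusted p below 0.05. In Slc26 5 genes lie from -1.69 to -0.37 and 6 at about 0, but the intervals of Slc26a10 and Slc26a11 overlap. Slc26a3, Slc26a5, Slc26a8 and Slc26a9, among those at about 0, were dim. In Slc9 the apical exchanger genes and the others lie on opposite sides of 0.

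Sex and Cre status were partly confounded, as 2 of the 3 Cre-negative arrays and 0 of the 3 Cre-positive arrays carried Xist. Set against the 1 male Cre-negative array, the 17 members kept their direction, which their separate groups require. With sex as a second factor in limma 5 of the 42 members passed, or 11.9%, against 9.15% of all tested genes, and all 5 were among the 17: Slc26a1 (-1.72, adjusted p = 0.029), Slc26a6 (-1.09, 0.00458), Slc26a7 (-1.08, 0.00748), Slc9a8 (-1.15, 0.0157) and Slc12a4 (0.85, 0.0134). Slc26a4 (-1.01, adjusted p = 0.0552), Slc4a1 (-0.94, 0.0507), Slc12a3 (-0.67, 0.0553) and Slc8a1 (-0.71, 0.0758) lost the call, as did Slc9a2 (-0.89, 0.0843), Slc9a3 (-0.47, 0.0933) and Slc9a4 (0.52, 0.106), and also Slc4a5, Slc9a5, Slc9a9, Slc12a2 and Slc26a10. This fit rests on 1 male Cre-negative array and has larger errors for the same spread, so a lost call is no measure of a sex effect. Within the Cre-negative group the 2 arrays with Xist exceeded the male array by 0.52 for Slc26a4, 0.41 for Slc8a1 and 0.48 for Slc4a11, and were lower by 0.40 for Slc9a8 (female minus male -0.40). Without the array with adrenal and the array with muscle transcripts, 7 members fell and 2 rose. The 8 members that lost the call there were Slc9a8 (-0.85, adjusted p = 0.0815), Slc9a2 (-0.84, 0.0978), Slc9a3 (-0.41, 0.103), Slc4a5 (-0.31, 0.276), Slc26a10 (-0.29, 0.205), Slc9a9 (1.04, 0.127), Slc12a2 (0.58, 0.0583) and Slc9a5 (0.35, 0.227).

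**Figure D4:**
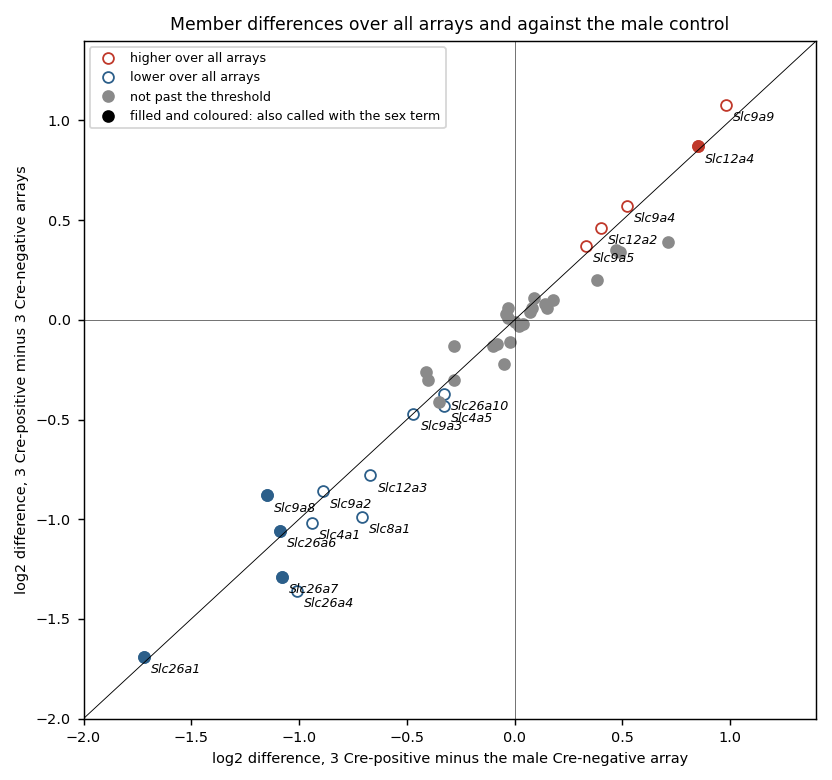
Log2 difference of the 42 members over all arrays (vertical axis) and against the single male Cre-negative array (horizontal axis), both Cre-positive minus Cre-negative, with equality drawn as a line and coloured filled points for the 5 members also called with sex as a second factor. Both axes share the 3 Cre-positive arrays and 1 Cre-negative array, so closeness to the line is built in, and Slc26a4, Slc4a11, Slc8a1 and Slc9a8 lie visibly off it.

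Partners of these carriers were examined as lists. The WNK kinases, the kinases SPAK (Stk39) and OSR1 (Oxsr1) and the ubiquitin ligase of Klhl3 and Cul3 set the activity of NCC and NKCC2. 5 of the 13 measured genes of this list fell, 1 rose and 7 did not pass, against 21.8% of all tested genes called in either direction, and the list median was 0.06. Klhl3, which presents WNK kinases for degradation, fell to 7.27, 7.18 and 7.15 in Cre-positive arrays, against 8.69, 8.65 and 8.29 in Cre-negative arrays (-1.34 ± 0.12, adjusted p = 0.00035). Its substrates Wnk4 (-0.48 ± 0.13) and Wnk1 (-0.38 ± 0.09) and its partner Cul3 (-0.33 ± 0.09) fell by less, Nedd4l, a ubiquitin ligase gene that also acts on sodium transporters, rose (0.40 ± 0.10), and Stk39 (0.13 ± 0.12) and Oxsr1 (0.09 ± 0.08) did not pass. With sex as a second factor only Klhl3 kept its call in this list (adjusted p = 0.00435), and Wnk1 (0.247), Cul3 (0.131), Wnk4 (0.28), Cab39l (0.34) and Nedd4l (0.12) lost it.

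Active carbonic anhydrases supply the bicarbonate and protons that Slc4, Slc9 and Slc26 carriers exchange. The list used here, taken by symbol, also holds related proteins without enzyme activity, Car8 among them. Of 14 measured genes 4 fell (28.6%, against 11.1% of all tested genes) and 1 rose (7.14%, against 10.7%), with a median of -0.21. Car4, the membrane-bound enzyme of the proximal brush border, fell most, with 8.92, 9.11 and 9.24 in Cre-positive arrays against 10.94, 10.93 and 11.24 in Cre-negative arrays (-1.95 ± 0.12, adjusted p = 9.15e-05). Car12 (-0.90 ± 0.09), Car2, the cytosolic enzyme of proximal and intercalated cells (-0.76 ± 0.09), and Car8 (-0.96 ± 0.17) also fell, and Car13 rose (0.82 ± 0.16). Car4, Car12 and Car2 kept their calls with sex as a second factor, and Car8 (adjusted p = 0.0921) and Car13 (0.0675) lost them. Klhl3 and Bsnd also stand in the segment marker lists above. In the list of exchanger partners 2 of 9 fell, Ahcyl2 (-0.79 ± 0.08) and Dpp4 (-0.70 ± 0.13), and 1 rose, the NHE3 linker gene Ezr (0.37 ± 0.09), or 33.3% in either direction against 21.8% of all tested genes. Of these only Ahcyl2 kept its call with sex as a second factor (adjusted p = 0.0128), and Dpp4 (0.103) and Ezr (0.0747) lost it. The NHE3 scaffold gene Slc9a3r1 was at -0.28 ± 0.10 and did not pass (adjusted p = 0.079). Of 9 chloride channel genes 3 fell (33.3%, against 11.1% of all tested genes) and 2 rose (22.2%, against 10.7%). Bsnd, the barttin gene needed for basolateral chloride exit after NKCC2 and NCC, fell by 1.19 ± 0.13, and Cftr rose by 0.95 ± 0.19. Bsnd kept its call with sex as a second factor (adjusted p = 0.0157), and Clcn3 (0.0575), Clcn4 (0.085), Clcn7 (0.279) and Cftr (0.098) lost it.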

How the data were processed

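Each of 6 kidney RNA samples was hybridised to 1 Affymetrix array. The authors deposited log2 values after RMA (background correction, quantile normalization and probe set summary, as RMA is defined); per the submitters' processing notes the tools were Partek and RMA, for which no version is given, and build and annotation are not given either. RMA compresses differences of dim probe sets. Values ran from 1.89 to 13.59. No scanner file or scan date was used, and no batch was tested, and the number of arrays limits the precision. There were 0 columns of other samples.

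Of 41345 rows 23521 had exactly 1 symbol in GEO's platform annotation, and the row with the highest mean stood for each of 22180 genes, with no filter on low values. limma 3.58.1 in R 4.3.3 (lmFit, eBayes, two-sided, no covariate) gave differences, and Benjamini-Hochberg adjustment ran over all 22180 genes with a threshold of 0.05. The exact permutation test of 3 against 3 arrays cannot go below 0.10. In simulated data of 22180 genes this fit called 25% of 100 genes changed by 0.5, 66% of 50 changed by 1 and 98% of 50 changed by 2 (log2), with 2 calls among unchanged genes. A far smaller share of genes changed there than the 21.8% called in the real arrays. The adjustment depends on that share, so these rates do not carry over to the real arrays.

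Members are all genes of the 6 families. Named genes are every member, with members past the threshold and the textbook transporter of each segment given in every array. Of the other lists the counts are given with up to 4 genes of smallest p. Foxi1, Umod, Aqp1, Wnk4, Cab39l, Stk39, Oxsr1, Slc9a3r1, Car13, Clcn7, Idua and B4galnt1 fall outside this rule and were chosen after their values were seen. Members, segments and lists were chosen with earlier results of these data known. Array sex was read from Xist and Uty, Kdm5d and Eif2s3y. Alternatives are given in the closing section. Python 3.11.15 was used with pandas 2.3.3 for tables, and matplotlib 3.10.9 drew the figures.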

Additional observations from a re-analysis of the deposited data

How the results depend on the processing

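Counts of members called were 12 lower and 5 higher. Lower calls were 11 to 13 with quantile normalization repeated, with arrays centred on their medians, over the brighter genes only, with a trended robust eBayes, with array weights and with rows of a gene averaged, and 10 with the replicate number as a block, and higher calls were 4 to 6 under the first 6 of these. The fit over the brighter genes left out dim members, the called Slc4a5, Slc9a5 and Slc26a10 among them, while Slc4a3 and Slc12a1 gained a call. Higher calls were 3 with the replicate block, 2 at a threshold of 0.01, 1 with the sex term, 1 with male arrays alone (the lone Cre-negative array being taken to vary as the Cre-positive ones do) and 2 without the pair of arrays numbered 2. Lower calls were 9 at the threshold of 0.01, 4 with the sex term, 3 with male arrays alone and 7 without both replicates 2. Leaving out each array in turn gave 2 to 6 higher and 10 to 12 lower calls. These fits use fewer arrays or residual degrees of freedom, or a stricter threshold. Same-numbered arrays did not deviate together over all genes (correlations of 0.03, -0.042 and -0.015). These values show no pairing by number but cannot exclude one. With the replicate block Slc4a5, Slc9a5, Slc12a2 and Slc26a10 lost the call.

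Slc26a6, Slc26a7 and Slc12a4 passed in all 16 alternatives run for them. Of 656 values of single members under alternatives 557 kept direction and side of the threshold, 58 lost and 8 gained a call, and 33 changed sign, all of members that never passed and lay near 0; the cause was not tested. With the sex term or male arrays alone Slc24a4 was at 0.04, Slc26a2 at 4e-05, Slc26a3 at -0.04, Slc26a8 at -0.03, Slc26a9 at -0.03 and Slc26a11 at 0.02. With median centring Slc26a3 was at -0.03, Slc26a5 at -0.02 and Slc26a8 at -0.05, and with array weights Slc26a8 at -0.00489. Without both replicates 2 Slc4a2 was at -0.05, Slc24a4 at 0.07, Slc26a2 at 0.06 and Slc26a3 at -0.02. Over the fits without 1 array, Slc4a2 ranged from -0.02 to 0.11, Slc4a8 from -0.04 to 0.16, Slc12a5 from -0.05 to 0.22, Slc12a8 from -0.19 to 0.01, Slc24a4 from -0.09 to 0.08, Slc26a2 from -0.06 to 0.02, Slc26a3 from -0.05 to 0.14, Slc26a8 from -0.07 to 0.05 and Slc26a11 from -0.12 to 0.02.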
